A study of Drosophila melanogaster with 2 samples.

Results

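The genes examined were the 290 nuclear transfer RNA (tRNA) genes of Drosophila melanogaster, taken as every gene of biotype tRNA on the chromosome arms in Ensembl release 115, a choice by annotation alone, of 18164 genes in all on the arms. The 22 mitochondrial tRNA genes were left out. Chromatin immunoprecipitation and sequencing (ChIP-seq) had been done on whole embryos of pooled sex, 0 to 14 h old, from a transgenic line that stably expresses the protein of CG10979 with green fluorescent protein (GFP) at its C terminus. An antibody against GFP was used, although the antibody field of the labels names CG10979, and the 2 biological replicates, numbers 2 and 3, were 1 group with no second condition. Whole embryos mix many cell types and both replicates came from the same line, so a peak gives no cell type, and the replicates may share what is particular to that line.

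Transfer RNA genes are short and are transcribed by RNA polymerase III from promoter elements inside the gene, the A box and the B box. The factor TFIIIC binds these elements and brings TFIIIB, which places the polymerase at the start, a little upstream of the boxes. Many tRNA genes exist as identical copies, often in small clusters, and in yeast some are known to act as chromatin boundaries.

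Positions and strengths came from 4 deposited peak lists on build dm6. There was a relaxed list of 30000 peaks, weak ones included, for replicate 2, for replicate 3 and for the pool. A stricter list held 7630 peaks, set by the authors' irreproducible discovery rate (IDR) threshold, a measure of how well peaks repeat between replicates. At tRNA genes its peaks had the same signal value and rank as in the pooled list. It thus stood for the strong end of that list, and absence from it does not show poor repetition. The signal value of a peak is the authors' own score, used here to rank peaks within a list, and a value from the pool is not on the scale of a value from 1 replicate. A tRNA gene was counted when a peak summit lay within 500 bp of its annotated start. With 2 replicates of 1 group, and with neighbouring genes that share summits, no test over genes was made. The shares are descriptions, with Wilson 95% intervals that reflect only the number of genes.

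Most tRNA genes had a weak peak and few had a strong one. An IDR summit lay within 500 bp of the start of 37 of the 290 genes (12.8%, interval 9.40 to 17.1%), against 19.5% of all genes on the arms and 22.7% of the 13945 protein-coding genes counted from 1 start each. In the pooled relaxed list the order was the opposite. There 192 of the 290 genes had a summit (66.2%, interval 60.6 to 71.4%), against 46.7% of all genes and 51.9% of protein-coding genes. Of the genes with a pooled summit, 19.3% of the tRNA genes also had an IDR summit, compared with 43.7% of the protein-coding genes. The median rank of the strongest pooled peak was 13206 of 30000 at tRNA genes and 8668.5 at protein-coding genes. With a window of 200 bp an IDR summit lay at 20 tRNA genes (6.90%), against 13.6% of all genes and 16.6% of protein-coding genes. With 1000 bp it lay at 60 (20.7%), against 24.8% and 27.2%.

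Both replicates showed this. Replicate 2 had a summit of its relaxed list at 194 tRNA genes and replicate 3 at 177, where 47.0% and 46.9% of all genes, and 51.8% and 52.1% of protein-coding genes, had one. They shared 171 genes, 88.1% of the replicate 2 set and 96.6% of the replicate 3 set. In the 7630 strongest peaks of each replicate taken alone, 31 tRNA genes had a summit for replicate 2 and 36 for replicate 3, or 11.6% ± 1.22 (SD, n = 2) of the genes. The shares over all genes were 18.7% and 20.2%, and over protein-coding genes 21.8% and 23.6%. These shorter sets shared 22 genes, 71.0% of those of replicate 2 and 61.1% of those of replicate 3. A total of 86 tRNA genes (29.7%) had no summit in any of the 3 relaxed lists.

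Counted by length of sequence, summits were frequent at tRNA starts in the relaxed list. The 500 bp windows to either side of tRNA starts covered 0.220 Mb once overlaps were merged. They held 166 pooled summits, or 755 per Mb, against 224 per Mb along the 6 arms and 632 per Mb in the same windows at protein-coding starts. The relaxed lists of replicates 2 and 3 gave 764 and 723 per Mb. IDR summits numbered 25 in these windows, or 114 per Mb, against 57.0 per Mb along the arms and 186 per Mb at protein-coding starts. Away from protein-coding starts the tRNA windows still held 722 pooled summits per Mb, where the rest of the arms held 171, and 78.0 IDR summits per Mb (15 summits) against 40.3.

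The 37 genes with an IDR summit shared 25 distinct summits, since 12 of the summits had more than 1 tRNA start within 500 bp and at most 3. Their pooled signal values ran from 190.0 to 3133 with a median of 277.2, below the median of 373.3 of all IDR peaks. The sequences of 5 of these summits are shown first, because they show where the peaks lay in relation to the genes. Each is the summit base and 50 bp to either side on build dm6, written 5′ to 3′ along the strand of the nearest tRNA gene from the RefSeq genome of the same assembly, with bases of an annotated tRNA gene in capitals. The windows are chr3R:8669319-8669419 (minus strand) for tRNA:Tyr-GTA-1-8, chrX:3427719-3427819 (minus) for tRNA:Gln-TTG-2-1 and chr3R:24112728-24112828 (plus) for tRNA:Leu-TAA-2-1. They are chr2L:8541804-8541904 (plus) for tRNA:Asp-GTC-1-5 and chr3R:17619880-17619980 (plus) for tRNA:Pro-TGG-1-2.
tRNA:Tyr-GTA-1-8: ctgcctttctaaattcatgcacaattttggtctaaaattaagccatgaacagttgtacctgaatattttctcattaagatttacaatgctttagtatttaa
tRNA:Gln-TTG-2-1: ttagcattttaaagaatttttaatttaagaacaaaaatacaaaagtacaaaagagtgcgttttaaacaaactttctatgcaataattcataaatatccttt
tRNA:Leu-TAA-2-1: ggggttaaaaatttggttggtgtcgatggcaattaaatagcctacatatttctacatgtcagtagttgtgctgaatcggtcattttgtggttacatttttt
tRNA:Asp-GTC-1-5: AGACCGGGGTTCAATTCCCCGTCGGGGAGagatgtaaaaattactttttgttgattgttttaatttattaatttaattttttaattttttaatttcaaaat
tRNA:Pro-TGG-1-2: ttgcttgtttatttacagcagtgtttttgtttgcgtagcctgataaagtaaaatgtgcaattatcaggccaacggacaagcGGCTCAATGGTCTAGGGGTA
The first 3 windows hold no base of a tRNA gene. The window at tRNA:Asp-GTC-1-5 holds the last 29 bases of that gene and the window at tRNA:Pro-TGG-1-2 the first 20. In each of the 5 the summit itself lay outside the gene.

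The strongest summit at a tRNA gene was that of tRNA:Tyr-GTA-1-8 (FBgn0012024), a gene for tyrosine tRNA with an intron, at 8669081 to 8669174 on the minus strand of 3R. It lay at an offset of −195 bp, upstream of the tRNA start, and 249 bp from a start of the protein-coding gene CG8036. The signal value was 3133 in the pool (rank 116 of the IDR list), 1839 in replicate 2 (rank 97) and 1298 in replicate 3 (rank 152). No other tRNA gene had a pooled signal value above 799.5. The neighbouring copies tRNA:Tyr-GTA-1-6 and tRNA:Tyr-GTA-1-7, inside the same protein-coding genes p and CG8036, shared a pooled peak of 167.7, which was below the IDR list, with 93.83 in replicate 2 and 87.42 in replicate 3. Of the 10 tyrosine genes 6 had no pooled summit. The bodies of the 3 neighbours are shown because similar genes stood beside peaks of very different strength. They lie at chr3R:8668116-8668208, chr3R:8668612-8668705 and chr3R:8669081-8669174, all on the minus strand, with the B box match GTTCNANNC in capitals.
tRNA:Tyr-GTA-1-6: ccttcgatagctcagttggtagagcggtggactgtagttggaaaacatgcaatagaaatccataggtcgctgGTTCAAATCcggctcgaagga
tRNA:Tyr-GTA-1-7: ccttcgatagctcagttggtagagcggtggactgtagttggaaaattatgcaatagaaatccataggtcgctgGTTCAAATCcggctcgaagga
tRNA:Tyr-GTA-1-8: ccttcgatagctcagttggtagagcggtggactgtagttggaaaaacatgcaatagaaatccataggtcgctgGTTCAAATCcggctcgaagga
The 3 bodies share the same B box letters.

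The next summit in strength was at a lone gene far from any protein-coding start. tRNA:Gln-TTG-2-1 (FBgn0052493), a gene for glutamine tRNA at 3427452 to 3427523 on X inside CG12535, had its summit at −246 bp, upstream of its start, and 8038 bp from the nearest protein-coding start. Its signal value was 799.5 in the pool, 467.7 in replicate 2 and 339.6 in replicate 3. The leucine gene tRNA:Leu-TAA-2-1 (FBgn0053536), at 24112964 to 24113047 on 3R, had a summit at −186 bp with 589.0 in the pool, 323.4 in replicate 2 and 253.7 in replicate 3. A start of CG13605 lay 389 bp from that summit. The IDR summits of these 3 genes had the higher signal value in replicate 2. So did most IDR summits found in both replicates, as 22.5% of those 7351 had the lower value there.

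Other summits were level between the replicates or higher in replicate 3. At tRNA:His-GTG-1-3, a histidine gene on 2R, the summit at −140 bp had 563.6 in the pool, 281.9 in replicate 2 and 282.0 in replicate 3, and lay 110 bp from a start of CG8490. At the valine gene tRNA:Val-CAC-1-1 on 3R the summit at −377 bp had 517.4 in the pool, 217.2 in replicate 2 and 304.4 in replicate 3, with the nearest protein-coding start 1415 bp away. The 23 summits matched within 100 bp in both replicates had a median log2 ratio of replicate 2 to replicate 3 of 0.14 (SD over summits 0.35, range −0.56 to 0.73). That of all 7351 matched IDR summits was 0.28 (SD 0.44), with 1657 of them below 0 against 7 of the 23 at tRNA genes. The summits at tRNA:Leu-CAG-1-3 and tRNA:Arg-TCT-1-1 had no counterpart within 100 bp in replicate 2, and their values in replicate 3 were 151.0 and 102.3.

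**Figure D1:**
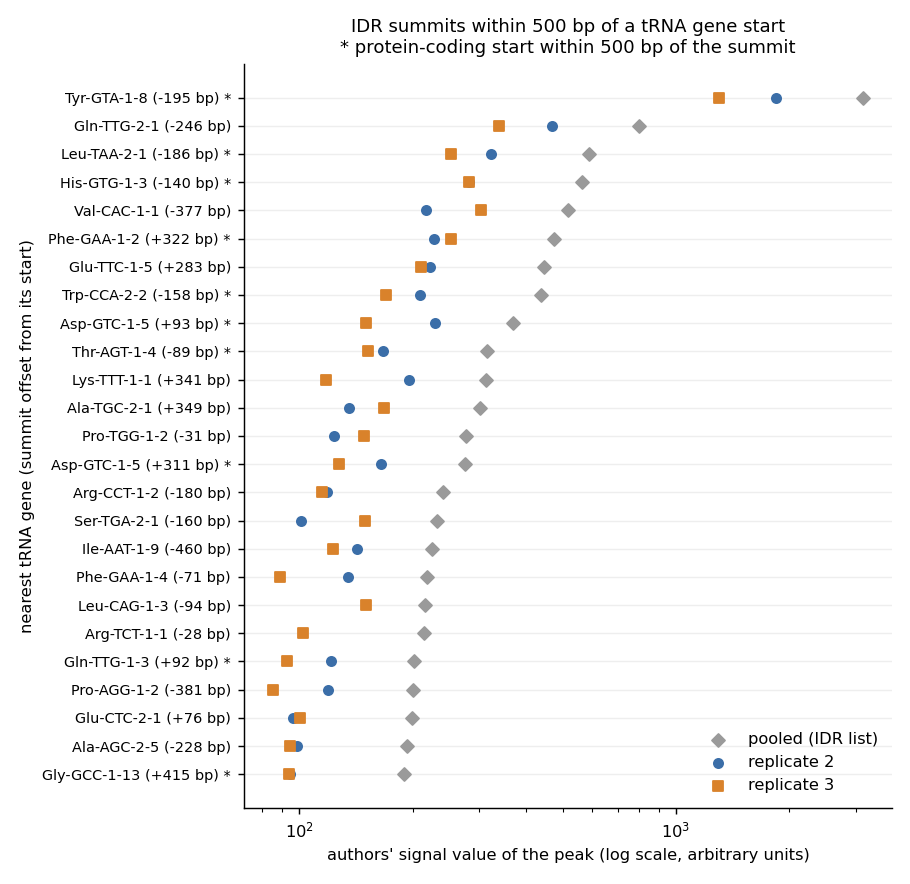
Signal value (log scale, arbitrary units) of the 25 IDR summits within 500 bp of a tRNA gene start, in the pool (diamonds), replicate 2 (circles) and replicate 3 (squares), 1 row per summit, labelled by the nearest tRNA gene and the summit's offset from its start. The summit at tRNA:Tyr-GTA-1-8 stands apart at 3133 in the pool, and the other 24 lie between 190.0 and 799.5.

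Summits with a protein-coding start close by had the higher median signal. Of the 25 IDR summits, 10 had a protein-coding start within 500 bp, where 37.4% of all IDR summits did. Among the 8 that were in the 3815 strongest IDR peaks, 5 did (62.5%). The share over all of those 3815 peaks was not counted, so this value has no matching background. The 10 had a median signal value of 403.6 (190.0 to 3133) and the other 15 a median of 232.6 (193.5 to 799.5), so the ranges overlapped. Over all IDR peaks the medians were 356.1 at protein-coding starts and 384.9 elsewhere. The 7630 strongest peaks of each replicate gave medians of 228.7 and 136.0 in replicate 2, and 201.6 and 123.4 in replicate 3. For the 10 summits, a peak of the tRNA gene and a peak of the protein-coding promoter cannot be told apart.

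Several of these protein-coding neighbours are well known genes. The summit at tRNA:Phe-GAA-1-2, a phenylalanine gene on X, lay 322 bp downstream of the tRNA start and 17 bp from a start of RpL17, which encodes a protein of the large ribosomal subunit. It had 475.7 in the pool, 228.5 in replicate 2 and 252.7 in replicate 3. A pair of summits stood between the aspartate gene tRNA:Asp-GTC-1-5 and a start of Sema1a, which encodes a guidance cue for axons, and both were also within 500 bp of the start of tRNA:Asp-GTC-1-4. The first, 293 bp from the Sema1a start, had 368.4 in the pool, 228.9 in replicate 2 and 150.7 in replicate 3. The second, 75 bp from it, had 275.7, 165.0 and 127.9. The weakest of the 25, at the glycine gene tRNA:Gly-GCC-1-13, lay 51 bp from a start of tud, a gene of germ plasm assembly, with 190.0 in the pool, 94.76 in replicate 2 and 93.84 in replicate 3. It was named after its values were seen.

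Further summits at protein-coding starts were shared by or close to other tRNA genes. The summit upstream of tRNA:Trp-CCA-2-2, a tryptophan gene, also fell within 500 bp of the glycine gene tRNA:Gly-GCC-1-9 and lay 129 bp from a start of CG30122. It had 438.7 in the pool, 209.6 in replicate 2 and 169.8 in replicate 3. At the threonine gene tRNA:Thr-AGT-1-4 the summit at −89 bp had 315.8, 167.4 and 152.3 in the same order, 346 bp from a start of CG31279. Both were under the value at tRNA:Tyr-GTA-1-8 in the pool and in each replicate.

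Of the 15 summits away from protein-coding starts, 8 had several tRNA starts within 500 bp and 7 had 1. The glutamate gene tRNA:Glu-TTC-1-5 on 2R had a summit 283 bp downstream of its start with 447.7 in the pool, 222.7 in replicate 2 and 210.8 in replicate 3, and the nearest protein-coding start was 13172 bp away. At the lone lysine gene tRNA:Lys-TTT-1-1, inside the tyrosine kinase gene Btk, the values were 313.4 in the pool, 195.5 in replicate 2 and 118.0 in replicate 3. At the alanine gene tRNA:Ala-TGC-2-1 they were 302.7, 136.0 and 168.2. By signal value alone, the first of these summits was level between the replicates, the second higher in replicate 2 and the third higher in replicate 3.

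Several summits were shared. A summit of 277.2 in the pool (124.1 in replicate 2, 149.0 in replicate 3) lay within 500 bp of tRNA:Ala-AGC-2-2, tRNA:Pro-TGG-1-2 and tRNA:Ala-AGC-2-3. A summit between the arginine genes tRNA:Arg-CCT-1-2 and tRNA:Arg-CCT-1-3 had 241.4 in the pool, 118.5 in replicate 2 and 115.1 in replicate 3. A summit between the serine genes tRNA:Ser-TGA-1-1 and tRNA:Ser-TGA-2-1 had 232.6, 101.4 and 149.8. Near the IDR threshold, the summit between the phenylalanine genes tRNA:Phe-GAA-1-4 and tRNA:Phe-GAA-1-5 had 217.9 in the pool, 134.8 in replicate 2 and 89.14 in replicate 3, and the summit at −460 bp from the isoleucine gene tRNA:Ile-AAT-1-9 had 225.6, 142.9 and 123.4. The 3 leucine genes tRNA:Leu-CAG-1-2, tRNA:Leu-CAG-1-3 and tRNA:Leu-CAG-1-4 shared a summit of 215.9 in the pool.

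The strongest pooled peaks at tRNA genes outside the IDR list stood at 2 places on 2R. A peak of 178.0 (88.13 in replicate 2, 95.99 in replicate 3) lay within 500 bp of the initiator methionine genes tRNA:iMet-CAT-1-1 and tRNA:iMet-CAT-1-2 and of tRNA:Glu-TTC-1-4. A peak of 174.0 (73.17 and 105.2) lay at the alanine genes tRNA:Ala-CGC-1-2 and tRNA:Ala-CGC-1-3 inside gol. The lowest value of the IDR list was 189.9, so that these places lay just under it. The 7630 strongest peaks of replicate 3 took in the alanine pair and those of replicate 2 did not.

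Across the tRNA genes with a summit in both replicates' relaxed lists, most had the higher value in replicate 3. The median log2 ratio of replicate 2 to replicate 3, taken between the strongest peak of each list within 500 bp, was −0.26 (SD over genes 0.60), with 110 of 171 genes below 0. Over all 7658 genes with a summit in both lists it was 0.04 (SD 0.58), with 3606 below 0. Over 69 small nucleolar RNA (snoRNA) genes it was −0.08 (SD 0.90), with 38 below 0. The 2 lists differ in scale among weak peaks. A peak of rank 28032 in replicate 2 had 20.67, and one of rank 28371 in replicate 3 had 26.30. Peaks at tRNA genes were weaker than those at all genes (median pooled rank 13206 against 9066.5). The ratios thus compare unlike ranks and do not show a lean of tRNA genes to replicate 3. The peaks compared at a gene may be different peaks in the 2 lists. The lists hold no counts and depth is unknown.

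**Figure D2:**
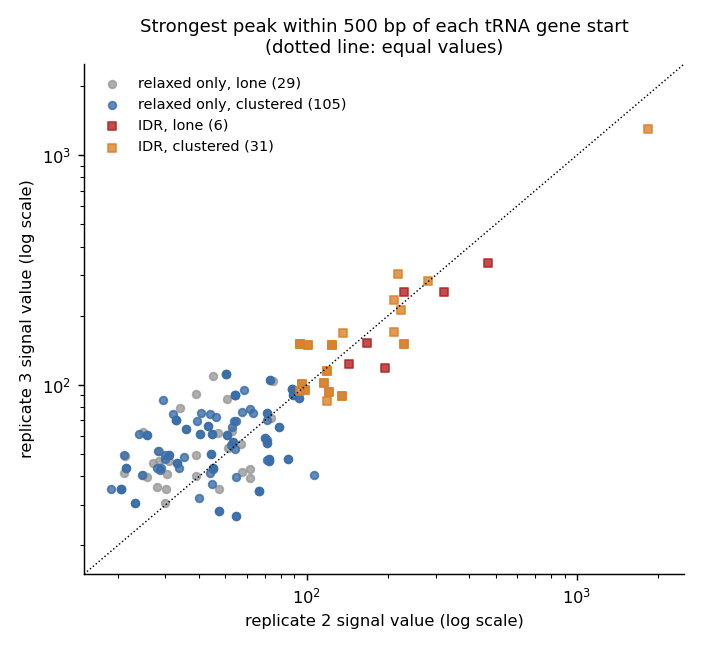
Signal value of the strongest relaxed peak within 500 bp of each tRNA gene start in replicate 2 (x axis) and replicate 3 (y axis), both on log scales, for the 171 genes with a summit in both lists. Squares mark the 37 genes with an IDR summit and circles the others. Most circles lie above the dotted line of equal values, which is not a line of equal rank, and tRNA:Tyr-GTA-1-8 is the square at 1839 and 1298.

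Clustered tRNA genes had summits more often than lone ones, by little among the strongest IDR peaks. A gene was called clustered when another tRNA start lay within 1000 bp, which held for 183 genes and left 107 lone. An IDR summit lay at 31 clustered genes (16.9%, interval 12.2 to 23.0%) and 6 lone genes (5.61%, interval 2.60 to 11.7%), where all genes had 19.5%. Among the 7630 strongest peaks of a replicate the shares were 12.6% and 7.48% in replicate 2, and 15.3% and 7.48% in replicate 3. In the pooled relaxed list they were 81.4% and 40.2%, where all genes had 46.7%. Among the 3815 strongest IDR peaks the shares were close, 3.28% (6 genes) and 2.80% (3 genes).

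A count of genes counts a shared summit once per gene. With tRNA genes within 1000 bp of each other counted as 1 locus, there were 175 loci, of which 68 held several genes. An IDR summit lay at 17 of these and at 6 of the 107 loci of 1 gene (5.61%), and a pooled summit at 58 (85.3%) and 43 (40.2%). Per length of window, IDR summits numbered 168 per Mb at clustered starts and 56.0 per Mb at lone starts, where the arms had 57.0. Pooled summits numbered 1011 and 485 per Mb. In windows away from protein-coding starts the pooled values were 1022 and 419 per Mb.

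The largest clusters had weak peaks and none in the IDR list. A locus of 7 isoleucine and leucine genes on 2R, from tRNA:Ile-AAT-1-3 to tRNA:Leu-CAA-1-1, had a pooled summit at each gene and none in the IDR list, and its highest signal value was 75.73. A locus of 7 arginine and serine genes on X, from tRNA:Arg-TCG-2-1 to tRNA:Arg-TCG-3-4, had one at 2 genes, at most 78.53. Smaller loci varied. The 4 genes from tRNA:Lys-CTT-1-6 to tRNA:Lys-CTT-1-9 on 2R had none. In the locus of 4 glutamate genes that holds tRNA:Glu-TTC-1-5, 3 had an IDR summit and all 4 a pooled one. The loci of 4 genes were picked after their values were seen.

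IDR summits were more frequent at tRNA genes with a protein-coding start close by. Of the 32 tRNA genes with a protein-coding start within 500 bp of their own start, 12 had an IDR summit (37.5%, interval 22.9 to 54.7%), against 25 of the other 258 (9.69%, interval 6.65 to 13.9%). All genes had 19.5% and protein-coding genes 22.7%. The 7630 strongest peaks of each replicate gave 29.7% ± 2.21 and 9.30% ± 1.64 (SD, n = 2). The pooled list had a summit at 81.2% and 64.3%, where all genes had 46.7%. Among clustered genes with no protein-coding start near, 22 of 160 had an IDR summit (13.8%), and among lone genes 3 of 98 (3.06%).

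Genes inside a protein-coding gene had fewer IDR summits than those outside. An IDR summit lay at 6 of 134 tRNA genes inside a protein-coding gene on either strand (4.48%) and at 31 of 156 outside (19.9%), the latter level with the 19.5% of all genes. Pooled summits were found at 69.4% and 63.5%, both above the 46.7% of all genes. The 7630 strongest peaks of each replicate gave 5.22% and 15.4% in replicate 2, and 5.22% and 18.6% in replicate 3. Among clustered genes the counts were 3 of 81 inside (3.70%) and 28 of 102 outside (27.5%), and among lone genes 3 of 53 and 3 of 54. Whether the 2 kinds of gene differ in this was not tested. The 6 genes inside were tRNA:Tyr-GTA-1-8, tRNA:Gln-TTG-2-1, tRNA:Thr-AGT-1-4, tRNA:Lys-TTT-1-1, and tRNA:Ala-AGC-2-5 with tRNA:Pro-TGG-1-3, which share a summit inside CG43175.

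**Figure D3:**
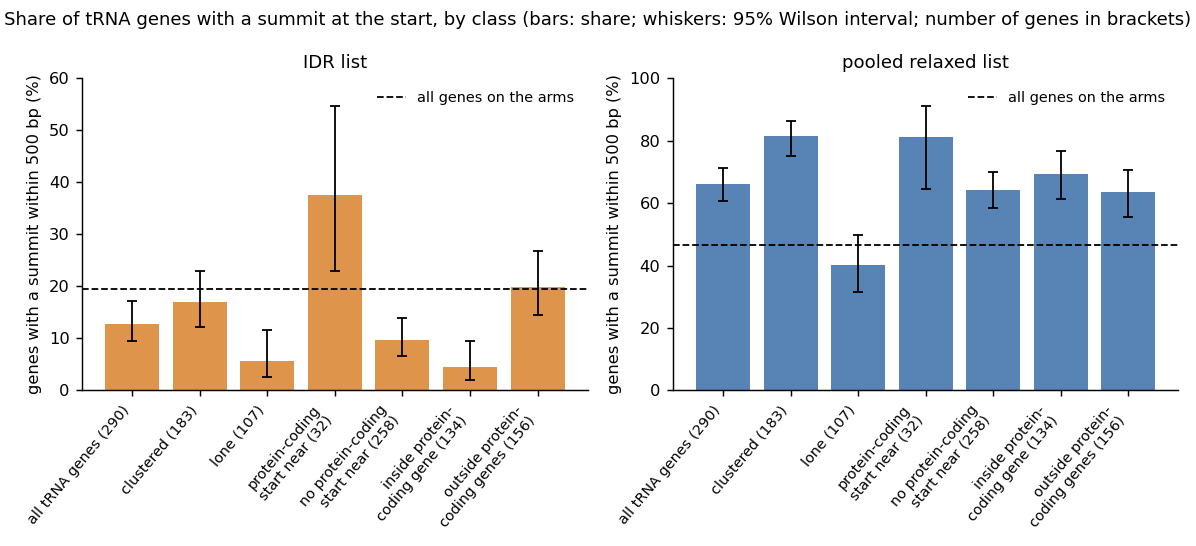
Share of tRNA genes with a summit within 500 bp of the start (y axis, percent) in the IDR list (left) and the pooled relaxed list (right), by class with the number of genes in brackets. Bars are shares, whiskers Wilson 95% intervals, and the dashed line is all genes on the arms (19.5% and 46.7%). In the IDR list genes near a protein-coding start stand highest at 37.5%, and in the pooled list lone genes stand lowest at 40.2%.

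By amino acid, IDR summits were spread thinly over 18 of 22 groups, with initiator methionine and selenocysteine genes counted as groups of their own. Alanine and leucine had 4 genes each with an IDR summit (of 17 and 22), and arginine (of 26), glutamine (of 12), glutamate (of 19), phenylalanine (of 8) and proline (of 17) had 3 each. Asparagine (10 genes), cysteine (7), initiator methionine (6) and selenocysteine (1) had none. Several counts rest on 1 summit or 2, such as 2 distinct summits for the 4 leucine genes and 2 for the 3 arginine genes. The leucine count was 1 gene in the strongest peaks of replicate 2 and 4 in those of replicate 3, and the glutamine count was 3 and 1. With groups this small the IDR counts do not rank the amino acids.

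The relaxed list divided the amino acids more widely. All 11 isoleucine genes had a pooled summit and a summit in both replicates, and so did the gene for selenocysteine tRNA, which is read at a stop codon. Glutamate genes had one in 17 of 19 cases, tryptophan genes in 7 of 8 and alanine genes in 14 of 17. These counts are of genes, and neighbouring genes often shared a summit, so they rest on fewer summits. The 4 glutamate genes from tRNA:Glu-CTC-3-4 to tRNA:Glu-CTC-3-7, for instance, shared 1 of 61.80. Distinct pooled summits per amino acid were not counted. At the other end were methionine elongator genes with 2 of 6, tyrosine with 4 of 10, lysine with 8 of 19 and valine with 7 of 15, where 46.7% of all genes had a pooled summit. The lysine and valine counts are near that background. The wide intervals of methionine elongator (9.68 to 70.0%) and tyrosine genes (16.8 to 68.7%) take it in too, so these groups are not set apart from it. Clustered genes made up 8 of 11 isoleucine, 17 of 19 glutamate, 6 of 8 tryptophan and 12 of 17 alanine genes. At the low end they made up 1 of 6 methionine elongator, 7 of 10 tyrosine, 12 of 19 lysine and 11 of 15 valine genes. The part of clustering in the order of the amino acids was not tested.

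**Figure D4:**
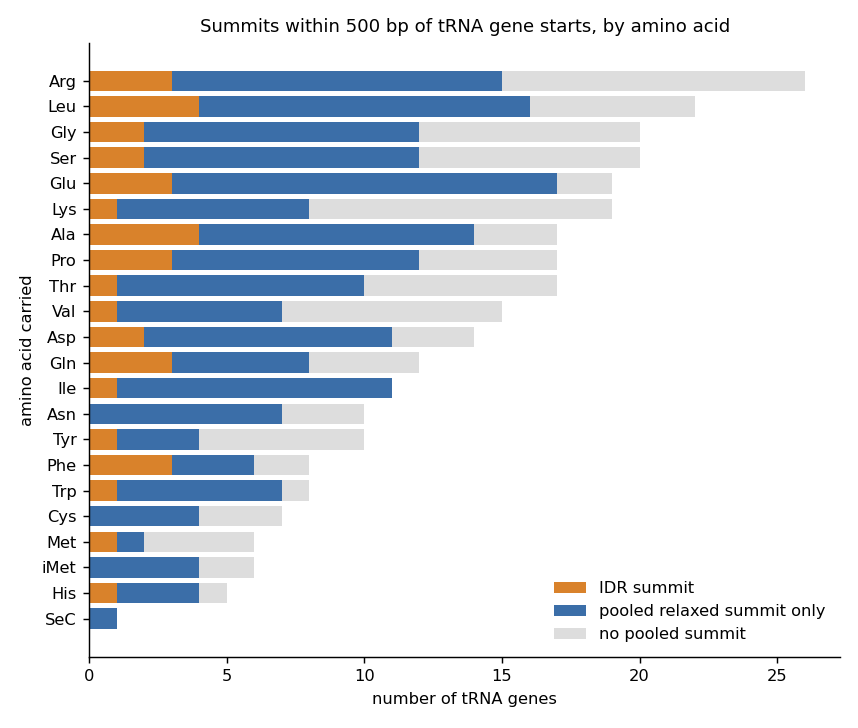
Number of tRNA genes per amino acid (x axis) with an IDR summit within 500 bp of the start, with a summit in the pooled relaxed list only, and with none in that list; iMet is the initiator methionine and SeC selenocysteine. All 11 isoleucine genes have a summit, and only 1 of them is in the IDR list.

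Genes with the same body sequence did not all have a peak. The body sequence of 238 tRNA genes was identical to that of at least 1 other, in 43 families of up to 13 genes. An IDR summit lay at some members of 16 families, at all members of 0 and at none of 27. Pooled summits lay at some members of 30 families, at all of 9 and at none of 4. Over all 290 tRNA genes the shares were 12.8% for IDR and 66.2% for pooled summits, and over all genes 19.5% and 46.7%. At such an IDR share few families would have a summit at every member. The 12 aspartate genes of family tRNA:Asp-GTC-1 had pooled summits at 9, from 54.87 to 368.4, and the 13 glycine genes of tRNA:Gly-GCC-1 at 7, from 41.42 to 438.7. All 9 genes of tRNA:Ile-AAT-1 and all 9 of tRNA:Glu-CTC-3 had one, while the 5 genes of tRNA:Lys-TTT-2 and the 4 of tRNA:Arg-TCG-3 had none. Neighbours in a family can share a summit, as the 4 genes from tRNA:Glu-CTC-3-4 to tRNA:Glu-CTC-3-7 shared a pooled one of 61.80. Among the 6 genes of tRNA:Val-CAC-2, only tRNA:Val-CAC-2-6 had a pooled summit (72.56), and tRNA:Val-CAC-2-5 had a peak of 283.3 in replicate 2 with none in the pool or in replicate 3.

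Reads from identical bodies can fit several places. An IDR summit lay at 28 of the 238 genes with a shared body (11.8%) and at 9 of the 52 with a body of their own (17.3%), both under the 19.5% of all genes. Pooled summits lay at 68.9% and 53.8%, both above the 46.7% of all genes. The treatment of such reads is unknown here, and its part in these shares was not tested.

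None of the 25 IDR summits fell inside a tRNA gene. In the 7630 strongest peaks of replicates 2 and 3 the counts were 0 of 23 and 1 of 25. Gene bodies fill only a small part of the 500 bp windows, so by area alone only a small share of the summits of any list would fall inside. That part was not measured. Measured from the nearest tRNA start along its strand, 16 of the 25 IDR summits were upstream and 9 beyond the gene's end. The median was −89.0 bp and the quartiles −186 and 93.0 bp. Of the 166 pooled summits 24 (14.5%) fell inside a tRNA gene, 86 upstream and 56 downstream, and the relaxed lists of the replicates had 30 and 25 inside. The medians there were −8.50 bp in the pool, 2.50 bp in replicate 2 and 2.00 bp in replicate 3.

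Around the start, pooled summits stood on both sides of tRNA genes. Per 100 genes, there were 15.9 in the 100 bp before the start, 11.0 in the 100 bp after it and 15.2 in the next 100 bp. From there on there were 5.17 between 200 and 300 bp. Protein-coding genes had 14.0, 10.9, 6.36 and 4.14 in the same bins, a profile that leans upstream, and snoRNA genes 4.83, 4.46, 1.49 and 2.60. For IDR summits the highest tRNA value was 3.10 per 100 genes, between 200 and 100 bp upstream, where protein-coding genes had 8.25. Neighbouring tRNA genes count the same summit at different distances, which blurs the tRNA profile.

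**Figure D5:**
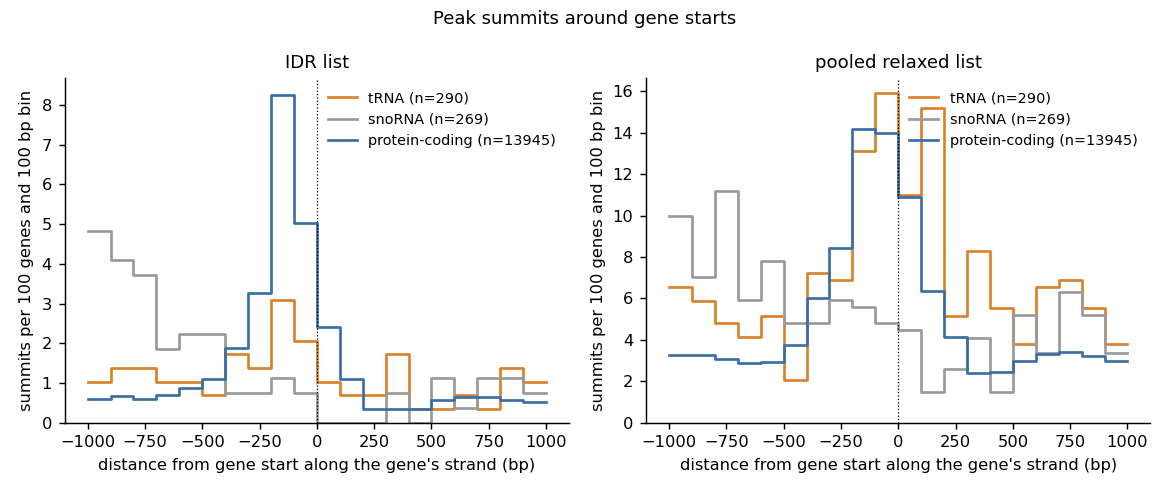
Summits per 100 genes in 100 bp bins (y axis) by distance from the gene start along the gene's strand (x axis, bp) in the IDR list (left) and the pooled relaxed list (right) for 290 tRNA, 269 snoRNA and 13945 protein-coding genes. In the pooled list tRNA genes reach 15.9 just upstream and 15.2 from 100 to 200 bp downstream, and in the IDR list protein-coding genes reach 8.25 where tRNA genes have 3.10.

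The B box, a promoter element inside the gene, was searched for at the summits. It was written GTTCGANNC and, in a wider form chosen after seeing that many bodies carry another base in the middle, GTTCNANNC, of which the first is a special case. The wide form was present in 271 of 290 tRNA gene bodies (93.4%) and the narrow form in 160 (55.2%), read along the gene's strand. On either strand of the summit windows, 50 bp to each side, the wide form was found at 5 of 25 IDR summits near tRNA genes and the narrow form at 1, that of tRNA:His-GTG-1-3. The windows at tRNA:His-GTG-1-3 and tRNA:Glu-TTC-1-5, both among those with the wide form, lay outside every tRNA gene. Their matches are thus not elements inside a tRNA gene. Among the 141 pooled summits near tRNA genes without an IDR call the counts were 32 (22.7%) and 20 (14.2%). Over all 7630 IDR summits the shares were 3.08% and 0.682%, and in windows of the same size at protein-coding starts 4.42% and 1.20%. Windows chosen near tRNA genes can hold part of a gene body and with it the word. Those at tRNA:Asp-GTC-1-5 and tRNA:Gln-TTG-1-3 held 29 and 30 tRNA bases, with the match among them. The higher shares near tRNA genes thus follow in part from the choice of summits, and nothing is concluded from them. A match is a run of letters, not a bound site.

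The GC content of the tRNA windows was 35.7% ± 9.38 (SD over 25 summits), against 31.8% ± 9.51 over all IDR summits, 39.1% ± 11.1 over all pooled summits and 58.1% ± 4.34 over tRNA gene bodies. TATAAA, the core of the TATA box, occurred in 3 of the 25 windows (12.0%) and in 26.1% of all IDR windows. AGATGGC, part of the motif of the insulator protein CTCF, occurred in 2 (against 2.06% of all IDR windows), at tRNA:Val-CAC-1-1 and tRNA:Thr-AGT-1-4. TATCGATA, bound by the promoter factor DREF, occurred in 0 of the 25, against 1.31%. These 3 words were read on both strands, and counts of 2 or 3 in 25 windows are too small to compare with these shares.

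Other small RNA genes gave a mixed picture. Among 9 further genes for small RNAs, of classes usually transcribed by RNA polymerase III, 3 had an IDR summit and 5 a pooled one, where 19.5% and 46.7% of all genes did. With 9 genes these counts are near that background. The list takes in RNaseP:RNA, which in Drosophila is known to be transcribed by RNA polymerase II with its host gene, and which had no summit. The genes snRNA:U6:96Ab and snRNA:U6:96Ac, for a spliceosomal RNA, shared a summit of 308.1 in the pool, 148.8 in replicate 2 and 153.2 in replicate 3. The gene snRNA:7SKa, for a regulator of transcription elongation, had 288.5, 130.5 and 161.3. The 2 genes for 7SL RNA, part of the signal recognition particle, had no summit in any list. No gene of the 96 for 5S ribosomal RNA had a pooled summit. These genes stand in a row on 2R, from 19729562 to 19766278. Reads from repeated copies can fit several places and their treatment is unknown here, so this count does not show absence. Of 269 snoRNA genes, which are mostly hosted in introns, 5.95% had an IDR summit and 28.3% a pooled one, and of 32 small nuclear RNA genes 8 and 22.

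Genes for RNA polymerase III and related factors, called machinery genes here, were counted from any annotated start. Not all of them serve the transcription of tRNA genes, as the list takes in the tRNA processing gene RtcB and Pbp45, Pbp49 and Pbp95. Of 20 such genes 8 had an IDR summit and 17 a pooled one, where 25.2% and 54.1% of all protein-coding genes did. Strong summits stood at Bdp1 (1707 in the pool, 930.3 in replicate 2, 767.8 in replicate 3) and Brf (1524, 841.1 and 683.6), which encode subunits of TFIIIB. Polr3E, a subunit gene of the polymerase, had 1695, 914.2 and 767.8. Pbp95, of the complex that activates small nuclear RNA genes, had 233.9, 124.6 and 116.5. Trf, which stands in for the TATA-binding protein at tRNA genes in flies and was named after its values were seen, had 223.9, 67.73 and 157.7. Bdp1, Brf and Polr3E each exceeded the pooled value at every tRNA gene except tRNA:Tyr-GTA-1-8.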

How the data were processed

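The peak lists were deposited by the authors as narrowPeak tables on build dm6. Replicate lists came from that replicate's alignment, the pooled list from both alignments, each set against the same control alignment, per the labels and a text file that accompanies them. The signal value is a score the authors deposited per peak, used for rank within a list, and the summit offset is theirs too. The sources used here name neither the peak caller nor the aligner. Depth is unknown, and the control, reads and coverage tracks were not analysed here.

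Gene models were taken from Ensembl (release 115) and bases from the RefSeq Release 6 genome, the assembly behind dm6; every peak fits its arm's length. Transposable element entries were left out. A gene was called when a summit lay within 500 bp of its start, and the strongest such peak gave its value. Pooled summits were matched to replicate summits within 100 bp. Genes and peaks are not replicates, so no test was run over them. Named were the 25 tRNA genes with the highest IDR signal value, the 5 with the highest pooled value outside the IDR list, and up to 5 comparison and 5 pathway genes with an IDR summit by signal value. Of the pathway genes this rule picks, 1 is not reported here. Other genes are said to have been named after their values were seen, or illustrate a family, locus or neighbouring gene. The members and lists were chosen with earlier results of these data known. Alternatives were other windows, lists, cluster distances and matching distances. Counting was tested on simulated data: in 20 runs all 40 planted tRNA genes were found each time. Tools were matplotlib 3.10.9, scipy 1.17.1, pandas 2.3.3 and numpy 2.4.6 under Python 3.11.15.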

Additional observations from a re-analysis of the deposited data

How the results depend on the processing

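The count of tRNA genes with an IDR summit depended on the window and the list. From 37 genes it moved to 20 with a start window of 200 bp and 60 with 1000 bp, 9 among the 3815 strongest IDR peaks, 192 with the pooled relaxed list, 18 with peak intervals that overlap the gene, and 23 with loci counted once. In the same settings clustered genes (31) moved to 18 at 200 bp, 6 among the strongest peaks and 149 in the pooled list. Lone genes (6) moved to 2 at 200 bp, 17 at 1000 bp, 3 among the strongest peaks, 43 in the pooled list and 11 with clusters defined at 500 bp. At 1000 bp the shares were 23.5% of clustered and 15.9% of lone genes, so that the gap narrowed. Amino acids with an IDR summit fell from 18 to 9 among the strongest peaks.

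Summits with a protein-coding start near moved from 10 of 25 to 5 of 8 among the strongest peaks (62.5%), a larger share of fewer summits, and to 5 of 25 with the protein-coding start within 200 bp of the summit. The median signal value of 277.2 became 540.5 among the strongest peaks, which leave out the weak ones. The median offset of −89.0 bp became −149 bp at 1000 bp and −172 bp among the strongest peaks. Windows with a B box, 1 with 50 bp to either side of the summit, were 0 with 25 bp, 3 with 100 bp and 5 with the wide letters, an alternative chosen after seeing the data. Comparison genes with an IDR summit moved from 3 to 1 at 200 bp and 0 among the strongest peaks, and machinery genes from 8 to 4 among the strongest peaks.

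Without replicate 2 or 3, that is with the other's own 7630 strongest peaks, tRNA genes ran from 31 to 36, clustered genes from 23 to 28, lone genes were 8, machinery genes ran from 6 to 7, and the median offset ran from −78.0 to −72.0 bp. The median signal value ran from 150.7 to 195.5, on the lower scale of 1 replicate. The replicate ratio stayed at 0.14 with summits matched within 50 or 200 bp. No paired analysis was possible because the series has 1 group. The cause of these moves was not tested. Signal values of the 25 named genes stayed the same at 200 bp for the 12 with a summit there and at 1000 bp for 23.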
